A study of Mus musculus with 6 samples.

Results

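The genes described here encode the proteins of the cytoplasmic ribosome, measured in mesenteric lymph nodes of naive adult mice. They were chosen by name: every probe whose accession carries an Rpl or Rps symbol followed by a number, with Rplp0, Rplp1, Rplp2 and Rpsa added, and without ribosomal S6 kinases and pseudogenes. This gave 132 probes of 74 genes among 41006 probes on the array. Of the genes, 42 belong to the large (60S) and 32 to the small (40S) subunit by name, 38 had 1 probe and 36 had several, with at most 7 for Rpl29. Rps19bp1 entered by its name only: it encodes a nucleolar protein that binds RPS19 and is no part of the ribosome. All 132 probes passed the filter on dim probes.

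The study hybridised 6 two-colour Agilent arrays. Per the labels, 3 arrays held nodes of mice with the knockout B-TNF KO (B_TNF_KO here) and 3 held the double knockout TB-TNF KO (TB_TNF_KO here). By these names the cytokine TNF is missing from B cells in all samples and from T cells also in TB_TNF_KO, the transgene that drives each deletion is not given in the sources used here, and no wild-type sample was analysed here. For each sample the nodes of 3 mice of its genotype were combined before RNA extraction, and the RNA was labelled with Cy3. The series' design text counts every such pool as independent. All pools were male by label except that of TB_TNF_KO array 2, which was female. Every array also carried a Cy5-labelled pool of RNA from 11 mouse cell lines as a common reference.

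Some facts of the arrays bear on every value below. TB_TNF_KO arrays 1 and 2 differed in the sample channel by 0.952 times as much as in the reference channel, which held the same RNA, against 1.05 to 1.59 times for the 14 other pairs of arrays. They were therefore counted as 1 sample, their mean, so that n was 3 in B_TNF_KO and 2 in TB_TNF_KO. Per the scanner file headers no day of feature extraction was shared by the groups, and that day and the group cannot be told apart. Over all probes, the median background-subtracted sample intensity ranged from 159 to 203 on the B_TNF_KO arrays and from 144 to 166 on the TB_TNF_KO arrays. For the reference the ranges were 280 to 283 and 315 to 362. Markers of node lymphocytes were present: the median log2 ratio of sample over reference was 1.29 to 1.58 for B cell genes and 1.52 to 1.78 for T cell genes on the 6 arrays.

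Ribosomal proteins wrap the ribosomal RNAs of both subunits, and a complete ribosome needs nearly every one of them. Their mRNAs are among the most abundant of any growing or dividing cell, and they share a pyrimidine tract at the 5′ end (the TOP motif), through which the kinase mTOR controls their translation. In lymphocytes the supply of ribosomes rises with activation, and mutations in single ribosomal protein genes affect blood cell formation in particular. The comparison asks how the transcripts of this gene family stood in nodes lacking TNF in B cells and in nodes lacking it in B and T cells.

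The family was so bright that for most of it the scanner could not measure the ratio of sample to reference. A spot is saturated when its pixels reach the upper limit of the scanner, and its intensity is then only a lower bound. Of the 132 probes, 83 (62.9%) were saturated in at least 1 channel on at least 1 array, against 223 of the 40660 other probes that passed the filter. The remaining 49 were never saturated. For 80 probes the reference channel was saturated on all 6 arrays, and 57 probes were saturated in the sample channel on at least 1 array. The saturated probes include 23 with the reference saturated on all arrays and 3 with it saturated on some, whose sample channel stayed below the limit on every array. At the extreme, 10 probes of 8 genes were saturated in both channels on all 6 arrays: Rpl13 of the large subunit, the stalk protein gene Rplp1, and Rps9, Rps10, Rps14, Rps20, Rps23 and Rps29 of the small subunit. In all, 35 genes had only saturated probes, 25 had only probes that were never saturated, and 14 had both kinds.

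The number of member probes saturated in the sample channel was 53, 32 and 57 on the 3 B_TNF_KO arrays and 16, 10 and 29 on the 3 TB_TNF_KO arrays, so the groups did not overlap. Over all probes it was 128, 72 and 126 against 43, 32 and 60, also without overlap, so the separation was not particular to the family. In the reference channel the number of member probes was 80 to 82 on every array. Median sample intensities of the 132 probes were 54495, 42570 and 57769 on the B_TNF_KO arrays, against 34962, 31186 and 42558 on the others, which just fail to overlap. Their median reference intensity lay between 65151 and 65158 on all 6 arrays. The whole sample channel was dimmer in TB_TNF_KO on most arrays, as given above. For 32 probes the sample channel was saturated on all B_TNF_KO arrays, and for 10 of these on all TB_TNF_KO arrays too. For the other 22 the B_TNF_KO level is only a bound, and since the mean after loess and Aquantile was lower in B_TNF_KO for all 22, no fold is given.

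**Figure D1:**
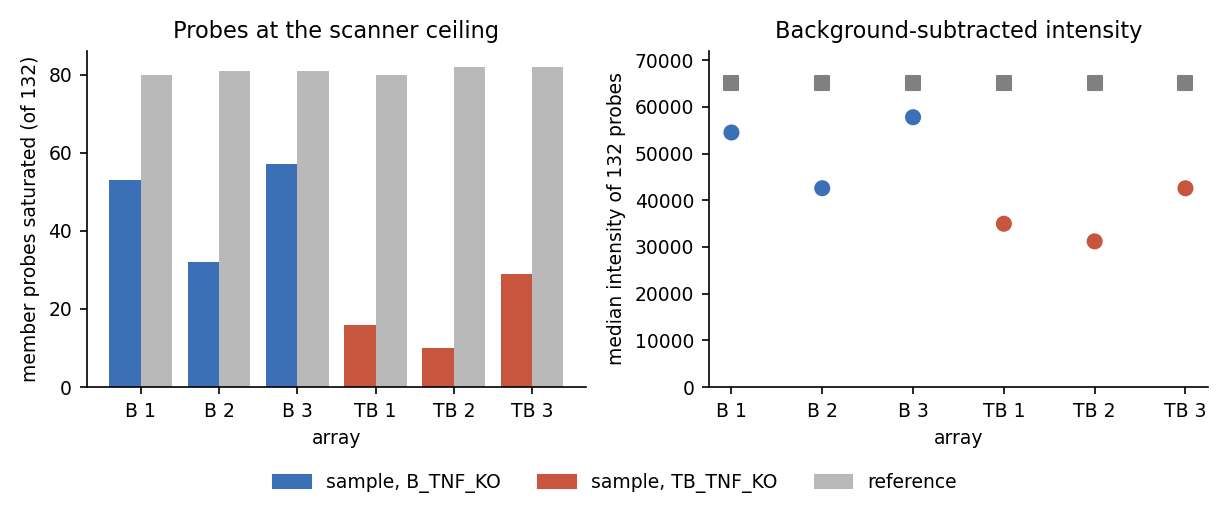
Left, the number of the 132 ribosomal protein probes saturated on each array (bars; blue B_TNF_KO sample, red TB_TNF_KO sample, grey reference); right, the median background-subtracted intensity of the same probes, circles for sample and squares for reference. The sample bars run from 32 to 57 in B_TNF_KO and from 10 to 29 in TB_TNF_KO, while the reference bars stay between 80 and 82 and its median at the scanner's limit.

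Taken as log2 ratios of sample over reference after loess normalisation, the family lay higher in TB_TNF_KO: the median difference (TB_TNF_KO minus B_TNF_KO) was 0.17 over the 132 probes and 106 were above 0, though with median centring in place of loess the median was -0.031. Over all probes the median difference was -0.011 and 45% were above 0. No single ribosomal protein probe passed an adjusted p of 0.05 in limma with Benjamini-Hochberg adjustment over all probes, where 0% of all probes were called higher and 0.0147% lower. Unadjusted, 44 members were higher and 6 lower at p under 0.05, against 5.02% and 11.2% of all probes. For 63 members the TB_TNF_KO arrays all lay above the B_TNF_KO arrays and for 8 they all lay below, against 10.6% and 17% of all probes.

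By saturation, the median was 0.25 over the 83 saturated probes, 75 of them above 0, and 0.056 over the 49 never saturated probes, 31 of them above 0, against 44.8% of all never saturated probes. Median centring gave 0.0050 and -0.078: it lowered the difference of 127 of the 132 probes and turned 50 of the 106 above 0 to below 0. Within the saturated probes the median was 0.56 for the 10 saturated in both channels everywhere and 0.30 for 47 with the reference saturated on all arrays and the sample on some. It was 0.066 for 23 with the reference saturated on all arrays and the sample on none, and 0.19 for 3 with the reference saturated on some arrays. The order was therefore not even: probes with only the reference saturated on all arrays lay close to the never saturated ones, and below the 3 with it saturated on some. Among other genes, 13 probes saturated in both channels on all arrays had a median of 0.56, and all 223 saturated probes one of 0.11.

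**Figure D2:**
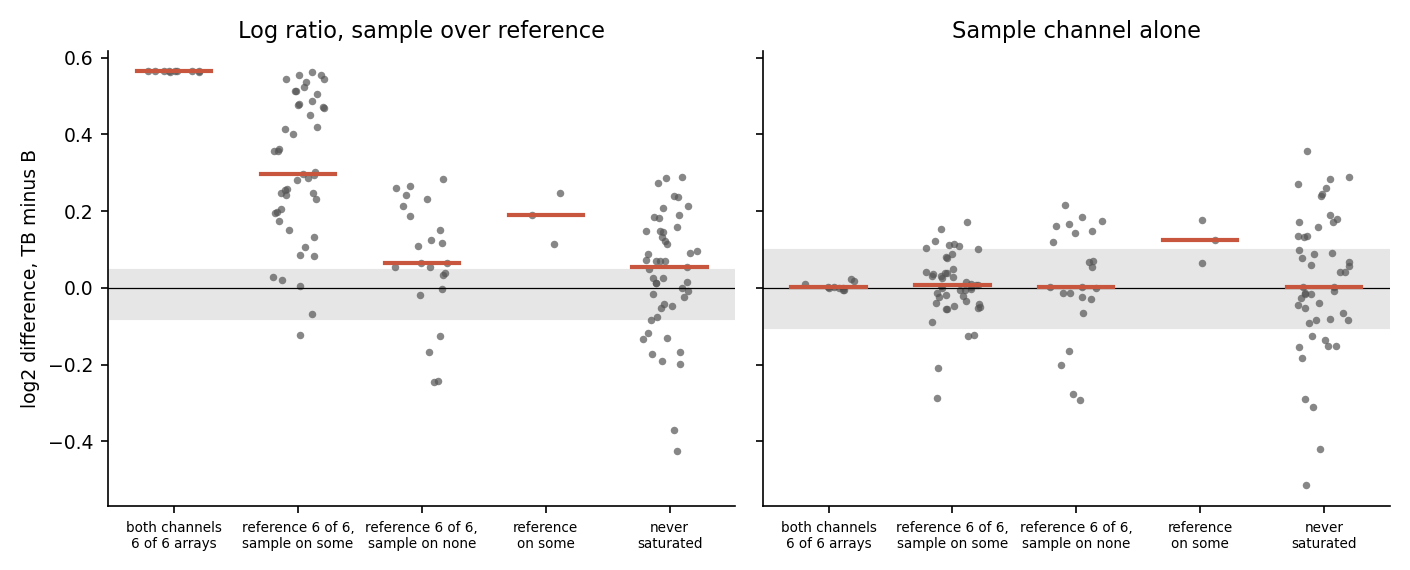
Each point is 1 of the 132 probes, placed by which channels were saturated on how many arrays; the y axis is the log2 difference, TB_TNF_KO minus B_TNF_KO, of the log ratio after loess (left) and of the sample channel alone after quantile normalisation (right). Red lines are class medians and the grey band the interquartile range of all probes. On the left the medians run from 0.56 for probes saturated in both channels to 0.056 for never saturated probes (-0.078 with median centring). On the right 4 of the 5 class medians lie between 0.0015 and 0.0070, and sample readings at the ceiling cannot show a difference.

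For the 10 probes at the ceiling in both channels the median log2 ratio before loess was -0.0003 to -0.0001 on every array, because both channels read the same limit. Loess turned this into 1.04, 1.24 and 0.64 on the B_TNF_KO arrays and 1.65, 1.85 and 1.33 on the TB_TNF_KO arrays, with no overlap of the groups. All 10 differed by 0.56 (SE 0.20, adjusted p = 0.25 in limma), whether the gene was Rplp1, which forms the stalk that recruits elongation factors, Rps9, whose product bears on the fidelity of decoding, or Rpl13. The same 3 numbers, 1.04, 1.24 and 0.64, returned on the B_TNF_KO arrays for every member saturated in both channels there, such as Rpl19, Rps16 and Rps21. These numbers are what loess subtracted at the top of the intensity range, which differed between arrays. With both channels at the limit, no ratio was measured.

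**Figure D3:**
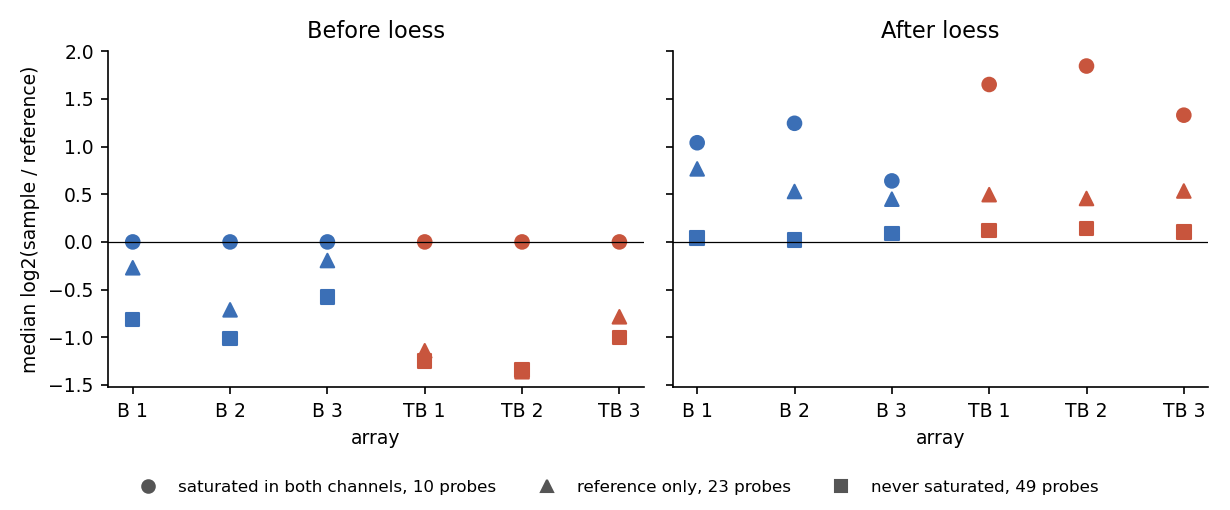
Median log2 ratio of sample over reference on each array before (left) and after loess (right), for 10 probes saturated in both channels (circles), 23 with only the reference saturated (triangles) and 49 never saturated (squares); blue marks B_TNF_KO and red TB_TNF_KO. The circles lie at 0 on every array before loess and between 0.64 and 1.85 after it, and the squares lie between 0.02 and 0.14 after it.

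In the sample channel alone, quantile normalised, the median difference was 0.0051 over the 132 probes (73 above 0, against 49% of all probes). It was 0.0063 over the saturated and 0.0035 over the never saturated ones. Over all 132 it was -0.088 with scaling to the 75th percentile (where the median of all probes was 0.10) and 0.12 after loess and Aquantile. Sample readings at the ceiling, met on at least 1 array by 57 members, cannot show a difference in the node RNA. These members also enter the counts below. For the 23 probes with the reference saturated on all arrays and the sample on none, the median was 0.0019. In limma 0 members passed an adjusted p of 0.05 (0.473% of all probes higher, 0.517% lower), and unadjusted 13 were higher and 6 lower (10.8% and 11.7% of all probes). For 32 members TB_TNF_KO lay wholly above and for 11 wholly below (15.1% and 17.5% of all probes). Counting the 6 arrays separately, 2 passed higher and 3 lower (3.55% and 4.16% of all probes). The reference channel, which held the same RNA on every array, differed by a median of -0.023 over the never saturated probes. In it limma called 0 members at an adjusted p under 0.05, as it called 0% of all probes in either direction. Unadjusted, 0 members were higher and 3 lower (8.89% and 14.1% of all probes). All 3 were among the 49 never saturated probes. The 80 members with the reference saturated on all 6 arrays read the same limit there. They could not be called, so the shares over all probes are no like background for the 132. Over the 6 arrays, the median SD of the log2 intensity of the 49 never saturated members was 0.047 in the reference and 0.32 in the sample channel. This SD includes the brightness of whole arrays. The median sample intensity of these probes ran from 4046 to 7654, and its log2 median after quantile normalisation from 12.41 to 12.65. Another measure is the SD of the difference between 2 arrays over all probes that passed the filter, quantile normalised. It ran from 0.14 to 0.23 in the reference and from 0.17 to 0.35 in the sample channel. The 2 measures cannot be set against each other. Before normalisation the reference median over all probes differed between the groups, as given above.

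The replicate numbers pair the samples only in part, by the check given with the methods. With the number as a block and 6 arrays counted separately, limma called 36 members higher and 2 lower (1.81% and 6.21% of all probes). Of these, 30 were saturated, and the 10 probes at the ceiling in both channels were all among them, with an adjusted p of 0.0098 each. With 6 arrays counted separately and no block, 9 were called higher and 2 lower (1.46% and 4.58% of all probes), of which 9 were never saturated. Array weights added to the 6 arrays gave 39 higher and 3 lower (2.43% and 7.73% of all probes), and a trended, robust variance with the 5 samples gave 0 higher and 2 lower (0.363% and 1% of all probes). The fits on 6 arrays count TB_TNF_KO arrays 1 and 2 as separate samples.

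The 49 probes that stayed below the ceiling in both channels give the part of the family whose ratio was measured on all arrays. Median log2 ratios were 0.042, 0.021 and 0.087 on the B_TNF_KO arrays against 0.12, 0.14 and 0.10, so the group medians did not overlap. Of these probes 18 lay with TB_TNF_KO wholly above and 8 wholly below, against 10.4% and 17.1% of all never saturated probes. Unadjusted, limma had 11 higher and 6 lower, against 4.86% and 11.2% of all never saturated probes. Their differences ran from -0.43 (Rpl27a) to 0.29 (Rpl29). By subunit, the median was 0.056 over 35 large subunit probes and 0.070 over 13 small subunit probes, Rps19bp1 left out, and the 38 saturated small subunit probes were all above 0.

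Rpl29 stood at the upper end. It encodes a large subunit protein rich in basic residues. Its 7 probes include 3 that overlap, printed here because they repeat one measurement within each array; capitals mark the 48 bases all 3 share, with the gene on chromosome 9 by RefSeq (GRCm38.p6) and the probe letters from the deposited scanner files.
Rpl29 A_66_P119166: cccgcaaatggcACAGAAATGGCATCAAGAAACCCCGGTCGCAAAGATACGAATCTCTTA
Rpl29 A_66_P126541: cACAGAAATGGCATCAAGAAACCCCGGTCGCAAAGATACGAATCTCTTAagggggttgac
Rpl29 A_66_P139668: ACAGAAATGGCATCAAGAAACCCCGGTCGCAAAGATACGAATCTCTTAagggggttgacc
The first gave log2 ratios of 0.62, 0.69 and 0.56 in B_TNF_KO and 0.91, 0.93 and 0.91 in TB_TNF_KO. Background-subtracted sample intensities of 22678, 20655 and 26916 against 18784, 16621 and 22726 lay under the ceiling, where members read about 65151. The groups did not overlap in the ratio, and the difference was 0.29 (SE 0.053, adjusted p = 0.076 in limma). The other two differed by 0.24 (SE 0.051, adjusted p = 0.099 in limma) and 0.29 (SE 0.052, adjusted p = 0.076 in limma). In the sample channel alone the 3 differed by 0.26, 0.24 and 0.29, and in the reference by -0.0089, 0.016 and 0.037. With median centring the log ratio differences were 0.075, 0.033 and 0.073. The first probe passed under 5 of 23 alternatives and ranged from 0.075 to 0.33 over them. All 5 were fits with the 6 arrays counted separately. These fits take every TB_TNF_KO array as its own sample, unlike the planned design, in which the probe did not pass. The fourth never saturated probe of Rpl29 differed by 0.15, and its 3 saturated probes by 0.27, 0.47 and 0.54.

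Rpsa encodes a protein of the small subunit also known as the laminin receptor precursor. It has 2 overlapping probes that were never saturated, printed with the 49 shared bases in capitals (chromosome 9).
Rpsa A_66_P124396: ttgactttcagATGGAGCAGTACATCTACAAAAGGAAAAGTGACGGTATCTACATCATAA
Rpsa A_66_P102412: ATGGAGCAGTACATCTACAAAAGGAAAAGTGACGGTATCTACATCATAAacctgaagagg
The first had log2 ratios of 0.49, 0.61 and 0.50 in B_TNF_KO and 0.76, 0.78 and 0.77 in TB_TNF_KO, and differed by 0.24 (SE 0.053, adjusted p = 0.11 in limma), or 0.024 with median centring. The other had 0.50, 0.58 and 0.50 against 0.70, 0.71 and 0.71, and differed by 0.18 (SE 0.047, adjusted p = 0.14 in limma), or -0.037 with median centring. Neither pair of groups overlapped. The 2 saturated Rpsa probes differed by 0.29 and 0.51.

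The stalk of the large subunit, which binds the translational GTPases, is built from the products of Rplp0, Rplp1 and Rplp2. Only 1 of 3 Rplp0 probes was never saturated. It had log2 ratios of 0.26, 0.21 and 0.21 in B_TNF_KO and 0.47, 0.44 and 0.41 in TB_TNF_KO, with no overlap and a difference of 0.21 (SE 0.045, adjusted p = 0.099 in limma), or 0.073 with median centring. Of its 2 saturated probes, which share 40 bases, A_66_P100653 differed by 0.55 and A_66_P105288 by 0.030 (0.30 and -0.22 with median centring). Rplp2, never saturated, had 0.75, 0.91 and 0.64 against 0.83, 0.90 and 0.81, overlapping groups and a difference of 0.070 (-0.18 with median centring). Rplp1 was at the ceiling and cannot be compared.

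A few further genes lay with all TB_TNF_KO arrays above B_TNF_KO on never saturated probes. Rps7, a small subunit protein that also binds the p53 regulator MDM2, had 1.09, 1.37 and 1.16 against 1.53, 1.56 and 1.41, and differed by 0.27 (SE 0.094, adjusted p = 0.24 in limma), or 0.095 with median centring. Rpl13a, known for its release from the ribosome in interferon-treated myeloid cells, had 1.32, 1.34 and 1.20 against 1.49, 1.51 and 1.50 on its brighter probe, a difference of 0.21 (SE 0.055, adjusted p = 0.14 in limma), or -0.025 with median centring. Its other probe differed by 0.15 (-0.080 with median centring). Rps12 differed by 0.19 and Rpl18 by 0.15 on their never saturated probes, or -0.015 and -0.074 with median centring.

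At the lower end stood 1 of 4 Rpl27a probes. Rpl27a encodes a large subunit protein. Probe A_66_P122990 had log2 ratios of -0.52, -0.69 and -0.51 in B_TNF_KO and -1.01, -1.10 and -0.94 in TB_TNF_KO, with no overlap. Its sample intensity was 898, 625 and 988 against 400, 353 and 558. It differed by -0.43 (SE 0.072, adjusted p = 0.067 in limma), and by -0.51 in the sample channel alone. The other never saturated probe, A_66_P107716, had -0.30, -0.27 and -0.37 against -0.24, -0.11 and -0.28, overlapping groups and a difference of 0.089 (-0.042 with median centring). The 2 saturated probes differed by 0.49 and 0.54. That probe and 1 of the saturated probes are printed with G and C in capitals, since their base composition differs (60% and 45%, against 35% in A_66_P122990); the gene lies on chromosome 7.
Rpl27a A_66_P107716: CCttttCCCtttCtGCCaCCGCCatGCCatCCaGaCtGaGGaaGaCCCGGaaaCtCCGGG
Rpl27a A_66_P102198: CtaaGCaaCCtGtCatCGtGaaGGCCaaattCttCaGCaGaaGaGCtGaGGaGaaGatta
No run of over 7 bases was shared between any pair of the 4 Rpl27a probes, and A_66_P102198 shares 44 bases with a probe for another accession on the array. The 4 probes of this gene thus gave values from -0.43 to 0.54.

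Rps19bp1, the member that is no ribosomal protein, had -1.02, -0.96 and -0.86 in B_TNF_KO and -1.35, -1.32 and -1.30 in TB_TNF_KO. The groups did not overlap, and the difference of -0.37 (SE 0.060) had the smallest adjusted p of all members, 0.064 in limma. Rpl21 on its never saturated probe had 0.01, -0.05 and 0.16 against -0.17, -0.20 and -0.14, a difference of -0.20 (SE 0.071, adjusted p = 0.25 in limma). This probe was dim, with sample intensities of 67 to 158. Rpl23, another protein that binds MDM2, had -0.02, -0.01 and 0.07 against -0.15, -0.15 and -0.09, a difference of -0.13. Among saturated probes the lowest were Rpl31 (-0.24 and -0.12), Rpl41 (-0.24 and -0.17) and Rpl35 (-0.13), all with the reference at its ceiling and with overlapping groups. The remaining Rpl41 probe, saturated in the sample channel too on some arrays, differed by 0.36.

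The 14 genes with both kinds of probe allow the comparison within a gene. The mean difference of the saturated probes was higher than that of the never saturated ones in 10 genes and lower in 4 (Rpl26, Rps7, Rps12 and Rps27a), with a median gap of 0.15. In the sample channel alone it was higher in 4 of 14 and the median gap was -0.079. A sample reading at the ceiling cannot show a difference in the node RNA. The sample channel therefore does not compare the 2 kinds of probe evenly. The gap in the log ratio was widest in Rpl27a (0.52 against -0.17), Rpl21 (0.25 against -0.20) and Rpl3 (0.45 against 0.092). In Rpl24, with 1 probe of each kind, the values were 0.12 and -0.076 (-0.13 and -0.27 with median centring). Rpl7a, whose 4 saturated probes averaged 0.19 and whose 2 never saturated probes averaged -0.0053, is represented among the calls on 6 arrays by A_66_P138827. Its reference was saturated but its sample was not, with log2 ratios of 0.55, 0.53 and 0.48 against 0.75, 0.78 and 0.70 and a difference of 0.21 (SE 0.047, adjusted p = 0.11 in limma), which turned to -0.034 with median centring. A ratio over a saturated reference is an upper bound before normalisation.

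**Figure D4:**
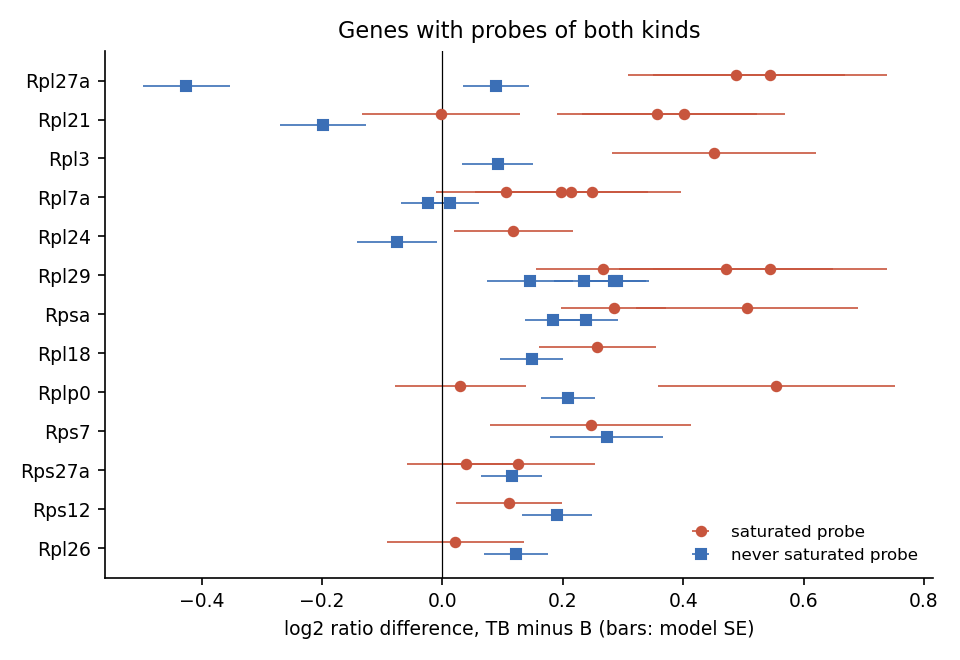
For 13 of the 14 genes with both kinds of probe, the log2 ratio difference, TB_TNF_KO minus B_TNF_KO, of every saturated (red circle) and never saturated probe (blue square), with the model's SE as bars. Genes are ordered by the gap between the means, from 0.68 for Rpl27a at the top to -0.10 for Rpl26 at the bottom.

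Overlapping probes show how far a difference of this size repeats. Members of the same gene formed 100 probe pairs, of which 20 shared a run of at least 20 bases. For the 6 overlapping pairs that were never saturated (in Rpl13a, Rpl29, Rpl36al and Rpsa) the differences lay within 0.0045 to 0.066 of each other. For 7 pairs of the same gene that were never saturated and did not overlap, the gap ranged from 0.0073 to 0.51, with a median of 0.099. The 14 overlapping saturated pairs had gaps of up to 0.53, the widest in Rplp0. The Rpl21 pair (chromosome 5), printed with its 54 shared bases in capitals, is such a pair.
Rpl21 A_66_P124616: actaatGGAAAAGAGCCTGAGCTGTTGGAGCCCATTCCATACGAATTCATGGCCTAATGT
Rpl21 A_66_P120035: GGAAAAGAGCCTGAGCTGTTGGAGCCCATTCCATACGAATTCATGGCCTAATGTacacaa
Both read the array constants 1.04, 1.24 and 0.64 in B_TNF_KO, while in TB_TNF_KO the first had 1.48, 1.36 and 1.33 and the other 1.36, 1.32 and 1.32. Their differences of 0.40 and 0.36 therefore rest on B_TNF_KO arrays on which no ratio was measured. No members of different genes shared 20 bases, and 7 members shared at least 30 with a probe of another name (of Rpl27a, Rpl29, Rpl9, Rps10, Rps28 and 2 of Rps2), so they could also bind transcripts of that name. The Rpl29 probe is A_66_P119166, printed above. The probe of Rps26 that was spotted 2 times gave log2 ratios of -0.41, -0.64 and -0.80 on the B_TNF_KO arrays at 1 spot. At the other spot it gave -0.32, -0.54 and -0.68. On the TB_TNF_KO arrays the first spot gave -0.28, -0.29 and -0.31 and the other -0.24, -0.42 and -0.29.

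Paralogues of ribosomal proteins, often restricted to certain tissues, were measured beside their main forms. Rps27 had 0.63, 0.59 and 0.49 in B_TNF_KO and 0.68, 0.69 and 0.72 in TB_TNF_KO, and differed by 0.13 (SE 0.057, adjusted p = 0.33 in limma; -0.11 with median centring). Rps27l, a p53 target, had -0.95 to -1.09 on the B_TNF_KO arrays against -1.12, -1.24 and -1.22, a difference of -0.19 (SE 0.056, adjusted p = 0.18 in limma). The groups did not overlap in either, and neither passed. Their probes are distinct, with a longest shared run of 6 bases (capitals), on chromosomes 3 and 9.
Rps27 A_66_P110128: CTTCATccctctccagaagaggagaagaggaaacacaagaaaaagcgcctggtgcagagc
Rps27l A_66_P122705: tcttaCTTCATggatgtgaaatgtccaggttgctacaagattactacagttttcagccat
Rpl22, needed for T cell development, had -0.81, -0.95 and -0.92 against -0.99, -1.07 and -1.10, a difference of -0.17 (SE 0.060, adjusted p = 0.24 in limma). Its paralogue Rpl22l1 differed by -0.042 with overlapping groups. Rpl7 differed by 0.066 (-0.17 with median centring) on a probe with a saturated reference, and Rpl7l1 by -0.17 on a dim probe. Rpl36a and Rpl36al differed by 0.056 (-0.074 with median centring) and by -0.053 and -0.046 on 2 probes. Rpl3l, the muscle form, differed by 0.074 (-0.098 with median centring) with overlapping groups, while Rpl3 differed by 0.092 (-0.028 with median centring) on its never saturated probe. Rpl39l, the form known from testis, was the member with the lowest log2 ratio to the reference, -4.53, -5.35 and -4.84 in B_TNF_KO and -5.02, -5.01 and -4.66 in TB_TNF_KO. Its groups overlapped and it differed by 0.070 (SE 0.24), and Rpl39 by 0.014 (-0.0051 with median centring). Of the forms with no known partner on the array, Rpl10 differed by 0.18 (0.057 with median centring) and Rps4x, with a saturated reference, by 0.13 (-0.12 with median centring); Rpl10l and Rps4l had no probe by the names used here.

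Against the reference pool of cell lines, most never saturated members lay near a ratio of 1. The mean log2 ratio over the 6 arrays ranged from -4.90 for Rpl39l to 1.85 (SD 0.11, 6 arrays) for 1 Rpl29 probe. After Rpl39l the lowest were a probe of Rpl14 (-2.03), Rps19bp1 (-1.14) and Rps27l (-1.10). The highest after Rpl29 were the 2 probes of Rpl13a (1.49 and 1.39) and Rps7 (1.35). All are ratios to the same reference RNA, and each mean spans both groups, so that the SD over the 6 arrays (0.21 for Rps19bp1, 0.12 for Rps27l) includes the difference between them. The order of neighbours was not tested.

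The base composition of the probe moved with the difference. Among never saturated members, 27 probes with up to 45% G and C had a median difference of -0.015 (12 above 0), and 22 probes above 45% one of 0.094 (19 above 0). Over all never saturated probes the medians were -0.025 and 0.014. The correlation of GC content with the difference was 0.39 over the 49 members, which share 6 arrays, and 0.24 over all never saturated probes. The lowest probe, A_66_P122990 of Rpl27a, has 35%, the Rps7 probe 60% and the 3 overlapping Rpl29 probes 48.3%. After subtraction of the GC trend on each array the member medians were 0.18 over all and 0.053 over never saturated probes, and Rpl27a differed by -0.40, Rps19bp1 by -0.37, Rps7 by 0.25 and Rpl29 A_66_P119166 by 0.28.

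**Figure D5:**
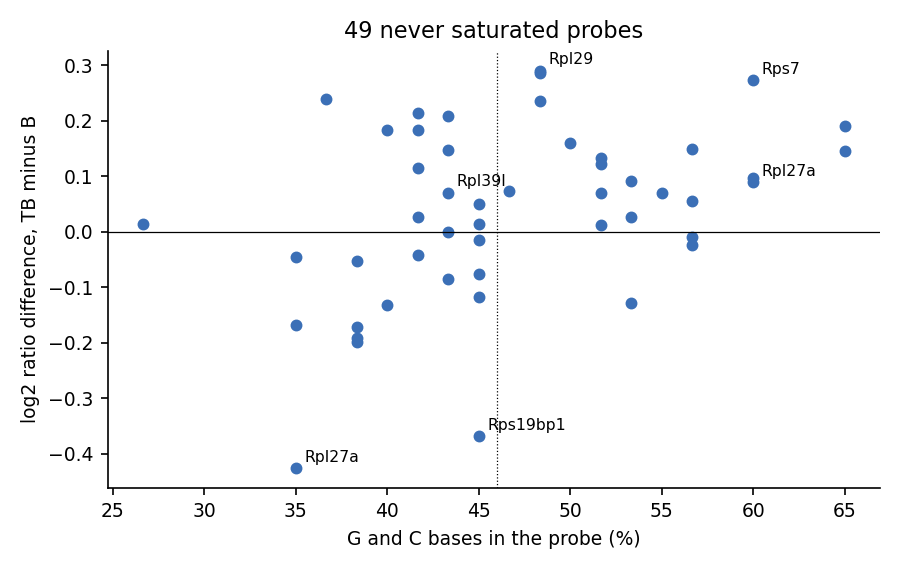
Log2 ratio difference, TB_TNF_KO minus B_TNF_KO, of each of the 49 never saturated probes (y axis) against the share of G and C bases in the probe (x axis); the dotted line separates probes with up to 45% from those above. To the right of it 19 of 22 points lie above 0, to the left 12 of 27.

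Other genes of the pathway were taken from lists chosen by name, and their differences from the members were not tested. Of 41 translation factors and other genes with TOP mRNAs listed, 34 had 58 probes, with a median difference of -0.0070 (-0.18 with median centring) and, unadjusted in limma, 8 higher and 8 lower (5.02% and 11.2% of all probes); none passed adjusted. Of these probes 12 were saturated. Tpt1, encoding the translationally controlled tumour protein, and Fau, encoding a fusion of a ubiquitin-like protein with the ribosomal protein eS30, were at the ceiling in both channels and differed by 0.56, the value of the members at the ceiling in both channels, where no ratio was measured. Pabpc1, the poly(A)-binding protein gene, differed by 0.50 on a probe with its reference saturated and by 0.34 on a never saturated probe (0.12 with median centring), and the never saturated probe of Fau differed by 0.061 (-0.033 with median centring). The 46 never saturated probes of this list had a median of -0.027 (2 higher, 8 lower, unadjusted). The never saturated members had 0.056, or -0.078 with median centring. Ribosome biogenesis genes (36 genes, 49 probes, none saturated) had a median of -0.0098 (-0.080 with median centring). Of these probes 5 were higher and 8 lower unadjusted, and none passed adjusted. Among them, Tcof1, which serves RNA polymerase I transcription, differed by 0.48, Gnl3 (nucleostemin) by 0.40, and Gnl2 and Ltv1, both assembly factors, by -0.30 each. Regulators of TOP mRNA translation (13 genes, 18 probes) had a median of -0.021 (-0.052 with median centring). Eif4ebp2, a repressor of cap-dependent translation, stood at 0.50 and the S6 kinase gene Rps6ka1 at 0.43. Of the 18 probes 3 were higher and 0 lower unadjusted, and limma called 0 adjusted.

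The mitochondrial ribosomal proteins, encoded in the nucleus for the organelle's own ribosome, lay lower in TB_TNF_KO under all 6 log ratio scalings tried. Their 83 probes of 66 genes, none saturated, had a median difference of -0.11, and 10 were above 0. For 50 the groups were separate with TB_TNF_KO below, and for 2 with it above, against 17% and 10.6% of all probes. In limma 3 were higher and 35 lower unadjusted (5.02% and 11.2% of all probes), and none passed adjusted. With 6 arrays counted separately 16 passed lower, against 4.58% of all probes. Across those 6 scalings the list's median ran from -0.20 with median centring to -0.082 without background subtraction. In the sample channel alone it was -0.14. The lowest were Mrps23 (-0.36), Mrpl45 (-0.36), Mrps14 (-0.34) and Mrps31 (-0.33), each with a probe of 35% to 36.7% G and C. The median GC content of the list was 43.3%, where all never saturated probes up to 45% had a median difference of -0.025.

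The starts of the genes were searched for runs of C and T, since the TOP motif is such a run. The search also counts runs that lie before the annotated start, as in Rpl13 below, so a match does not establish the motif. Of the 74 genes, 58 had an annotated start in RefSeq's promoter table (GRCm38.p6), with 250 bases before and 50 after it. The longest run of C and T overlapping the 15 bases on either side of the start was at least 7 bases long in 32 of 58 genes (55.2%), against 28.7% of all 27025 genes in the table and 24.6% of 69 mitochondrial ribosomal protein genes. It was at least 10 in 36.2%, 10.4% and 8.70%. A window from 20 bases before to 10 after the start is printed for members described above, chosen after their values were seen, with the run in capitals as far as the window shows it. In Rpl27a, Rpl13a, Rpl13 and Rps27 the run was longer than 7 bases, and Rpsa is one of the members without a run of 7.
Rpl27a, chr7:109519175-109519204, plus strand: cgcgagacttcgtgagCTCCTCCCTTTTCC
Rpl13a, chr7:45128736-45128765, minus strand: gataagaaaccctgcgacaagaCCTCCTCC
Rpl13, chr8:123102330-123102359, plus strand: gtcaCTTCCCTTTCgcctgattttgattgg
Rps27, chr3:90213639-90213668, minus strand: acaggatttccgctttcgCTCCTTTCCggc
Rpsa, chr9:120127746-120127775, plus strand: tggctgtgggttatttaaggacgtcaTTTC
The run of Rpl27a is 20 bases long, that of Rpl13a 14, that of Rpl13 10, that of Rps27 9 and that of Rpsa 5. The motif CCGGAAG, searched on both strands, occurred in 43.1% of member promoters, 37.7% of mitochondrial ribosomal protein promoters and 9.93% of all. GGGCGG occurred in 62.1% and 38.2% of member and all promoters, and TATAAA in 12.1% and 15.7%. A gene with several annotated starts was counted once, when any start had the feature, and these are matches of letters only.

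Markers of other cells were set beside these values, and their part in them was not tested. The median difference was -0.075 over 11 B cell probes, -0.10 over 8 T cell probes and -0.056 over 5 plasma cell probes. Exocrine pancreas markers (14 of 23 listed genes, 19 probes, all well above background on every array) summed to a sample intensity of 143154, 336953 and 6524 in B_TNF_KO and 364875, 347460 and 5439 in TB_TNF_KO. Both arrays numbered 3 thus stood apart as low, and the groups overlapped. Adipocyte markers (10 probes) summed to 127597, 99618 and 127482 against 52488, 43767 and 100887, again with TB_TNF_KO arrays 1 and 2 together. With both arrays numbered 3 left out, the member median was 0.11 over all and 0.042 over never saturated probes. With TB_TNF_KO arrays 1 and 2 left out it was 0.15 and 0.047. Either way only 1 TB_TNF_KO sample remains. Proliferation markers (13 genes, 19 probes), which often move with ribosomal protein genes, had a median difference of -0.0030. In bulk RNA of a node, a change in the share of cells rich in ribosomes and a change in the RNA per cell cannot be told apart.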

How the data were processed

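Per the labels and the series' design text, pooled mesenteric lymph node RNA (Cy3) and a common reference (Cy5) were hybridised to 6 Agilent arrays. Intensities were extracted by the authors with Agilent Feature Extraction A.7.5.1, per the file headers. The deposited scanner files hold mean and local background intensity per spot in both channels and pixel counts with saturation marks, and the deposited processed intensity was used as an alternative. The series table deposited by the authors holds log10 values with column medians of 2.98 to 2.99. They followed the processed sample signal of the same array (r of 0.993 to 0.996), so as an alternative, on the log2 scale, they compare sample levels; their scaling and centring stay unknown.

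Mean intensities were background corrected with normexp (offset 50) and loess normalised within arrays (limma 3.58.1, R 4.3.3), with control spots at weight 0 and 228 outlier spot readings set to missing after normalisation. Every log2 ratio is sample over reference, turned the same way on all arrays. Single channels were quantile normalised. Of 41006 probes, 40792 were well above background in the sample channel on at least 3 arrays and were fitted together with lmFit and eBayes. RefSeq (GRCm38.p6) gave a symbol to 15303 of 41034 spots by accession. Saturated values were used as read. Precision is limited by how few arrays there are. The script was tested on simulated data.

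The members and lists were chosen with earlier results of these data known. Named genes are, by rule, the 5 largest and 5 smallest differences among probes of each kind (saturated or never saturated), every gene with both kinds, the paralogue pairs, the stalk genes and Rpsa, and up to 4 genes of each other list by absolute difference. Rpl13a, Rpl14, Rpl23 and the genes given as examples of saturation fall outside it and were chosen after their values were seen. Some genes that the rule names are not reported here or drawn in the plot of genes with both kinds of probe. Same-numbered arrays of the groups share a replicate number in the labels. The correlation across probes of their deviations from the group means was 0.13, 0.53 and 0.62 for numbers 1, 2 and 3. Between arrays of unlike number it ran from -0.57 to 0.43. The highest of these, of B_TNF_KO array 2 with TB_TNF_KO array 1, exceeded that of the arrays numbered 1. The block was therefore fitted only beside the main design.

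Alternatives covered background correction, normalisation, filters, probe choice, spread model, array weights, GC content, the block and left-out arrays. Leaving out TB_TNF_KO arrays 1 and 2, leaving out arrays numbered 3, loess without saturated spots, 6 arrays without saturated probes and the GC correction of single channels were chosen after seeing the data. Plots were made in Python 3.11.15 with matplotlib 3.10.9.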

Additional observations from a re-analysis of the deposited data

How the results depend on the processing

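Of the alternatives to the log ratio, median centring in place of loess moved the member medians, to -0.031 over all, 0.0050 over saturated and -0.078 over never saturated probes, and taking 1 probe per gene moved the last to 0.014. Leaving out each array in turn gave 0.10 to 0.22, 0.15 to 0.32 and 0.041 to 0.071. Members called (0 in the design as planned) were 11 with 6 arrays separately, 12 of 49 with saturated probes also left out, 2 with trend and robust, 42 with array weights, 38 with the replicate block and 37 with the GC correction and the replicate block. All probes called (6) were 0 without background subtraction, after scaling, with the series table, with TB_TNF_KO arrays 1 and 2 left out and with arrays numbered 3 left out, 1 with processed signals, 2465 with 6 arrays separately, 557 with trend and robust, 4145 with array weights, 3272 with the block, 2777 with the GC correction and the block, 2512 with 6 arrays without saturated probes, and 0 to 5 with each array left out. Where an array was left out, the lone TB_TNF_KO sample was taken to vary like the others.

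The sample channel medians (0.0051 over all, 0.0063 saturated, 0.0035 never saturated) were -0.088, -0.055 and -0.15 with scaling to the 75th percentile. After loess and Aquantile they were 0.12 over all and 0.18 over saturated probes, with the processed signal 0.070 over saturated probes, and without TB_TNF_KO arrays 1 and 2 0.028 over all. The reference channel medians (-7.4e-06, -2.8e-07 and -0.023) were -0.14, -0.14 and -0.12 with the 75th percentile, -0.24, -0.25 and -0.17 with the processed signal, -0.050 and -0.10 (all and saturated) after loess and Aquantile, and -0.011 and -0.0077 with the GC correction. The cause of these shifts was not tested. No named member passed in the design as planned. Of those that passed under an alternative, median centring turned the direction of Rpl7a A_66_P138827 (-0.034), Rpsa A_66_P102412 (-0.037), Rps12 A_66_P118310 (-0.015), Rpl18 A_66_P128496 (-0.074) and Rps27 (-0.11). In all, 92 of the named probe values under alternatives passed the threshold that the planned design missed. Apart from the trended, robust fit, every fit that called members counted the 6 arrays separately. Limits: on at least 1 array 83 of 132 probes give at most a bound on the ratio, n is 3 against 2, and extraction day and group cannot be told apart.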

Other observations

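Of other genes, 223 probes were saturated on at least 1 array, 194 to 202 of them in the reference channel and 22 to 75 in the sample channel on any 1 array. Their median log ratio difference was 0.11 and 148 lay above 0, and in the sample channel alone the median was -3.6e-05. Sample readings at the ceiling cannot show a difference. Of the node entry and stroma markers, 1 of 13 probes was saturated, and the 12 others had a median difference of -0.16. Of these, 3 were called lower in limma, where 6 of all probes (0.0147%) were called lower.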
